A study of Mus musculus with 10 samples.

Results

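Red cell surface and blood group genes were followed across 5 mouse erythroleukemia (MEL) lines. MEL cells are a cultured line of erythroid precursors transformed by a retrovirus. The members are Gypc, Rhag, Rhd, Kel, Aqp1, Cd44, Cd47, Icam4 and Ermap, 9 of the 18193 genes that have a probe set of their own on the array, and every probe set whose platform gene symbol is a member was taken. That gave 16 of 45101 probe sets, with 1 each for 7 genes, 4 for Cd44 and 5 for Cd47, and 14 of the 16 exceeded the table median of 30.5 on at least 2 of the 10 arrays and were tested. The other two, of Cd44 (1443265_at, 1.67 to 13.96) and Cd47 (1459908_at, 4.26 to 15.1), stayed below that median on every array and give no order of the lines.

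All 5 lines carry the bacterial biotin ligase BirA. The parental Mel-BirA line was measured on 2 arrays. Its subclones, named FBB1.5, FBB1.7, FBB1.10 and, last, FBB1.11, stably express BCL11A with a FLAG and biotin tag and had 2 arrays apiece. BCL11A binds DNA through zinc fingers and is known for silencing fetal and embryonic globins. Within a subclone, what belongs to the tagged protein and what belongs to the clone cannot be told apart. The labels do not say whether a line's 2 arrays stem from different cultures, so the p-values measure spread between arrays alone, and this may be technical. As in any bulk sample, fewer cells of a kind and less RNA per cell cannot be told apart.

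Mature red cells carry a small set of abundant surface proteins, many of which are also blood group antigens. They sit in protein complexes that are tied from inside to a spectrin and actin skeleton, and they move gases, ions and water, mark the cell as self to macrophages and hold it to neighbouring cells while it matures. Their genes are switched on at different steps of red cell maturation, many under GATA1, the main erythroid zinc finger factor.

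The line label was set against erythroid markers first. Of 15 listed markers 11 had a probe set of their own, and 9 were tested. Gata1 (line means 2054 to 2350.5), Klf1 (971 to 1234) and Epor (913 to 1164) were well above the table median in all 5 lines, whereas Slc4a1, the late red cell anion exchanger (line means 7.03 to 11.5), and the Hba-a1 probe set (5.74 to 11.4) were below it on every array. Epb42 had line means of 15.3 to 46.6. Probe sets with several symbols were not read, so the Hba-a1 value does not settle the alpha globin level. Array medians lay between 29.6 and 31.6. RNA quality was read from the actin controls, whose 3' to 5' ratio was 1.80 for parental 2 and 1.47 for FBB1.5 1, against 1.06 to 1.22 on the other 8 arrays.

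Upstream sequence is shown for members that differed between subclones and held a match, and for Kel, which held GATAA more than once, to place the letters that erythroid factors are known to bind. The 250 bases before the RefSeq start site were searched on both strands for GATAA, the core of the GATA1 motif, and for CCNCNCCC, which the erythroid factor KLF1 binds. An entry was present for 8 of the 9 members, and GATAA was found in 6 of the 8 (Rhag, Rhd, Kel, Cd44, Icam4 and Ermap), against 25.5% of 27025 genes. CCNCNCCC was found in 3 of the 8 (Aqp1, Cd44 and Icam4), against 48.5% of genes, and Cd47 held neither. GATAA lies 27 to 31 bases before the start in Rhag, 38 to 42 in Rhd, 39 to 43 in Icam4, 63 to 67 in Ermap and 228 to 232 in Cd44, while Kel has 2 copies, at 51 to 55 and 14 to 18. The windows shown here run 5′ to 3′ on the gene's strand, build GRCm38.p6, with the match in capitals (TTATC is GATAA on the opposite strand). They are Rhag chr17:40811093-40811147 (+), Rhd chr4:134864469-134864523 (+), Icam4 chr9:21029364-21029418 (+), Ermap chr4:119190033-119190087 (-), Kel chr6:41704351-41704405 (-) and, for its CCNCNCCC match nearest the start, Aqp1 chr6:55336237-55336294 (+).
Rhag: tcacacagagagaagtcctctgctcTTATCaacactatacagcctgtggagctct
Rhd: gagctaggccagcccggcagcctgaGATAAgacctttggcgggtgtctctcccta
Icam4: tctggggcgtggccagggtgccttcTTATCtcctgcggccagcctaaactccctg
Ermap: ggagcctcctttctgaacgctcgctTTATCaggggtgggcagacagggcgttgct
Kel: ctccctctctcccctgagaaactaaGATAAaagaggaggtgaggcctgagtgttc
Aqp1: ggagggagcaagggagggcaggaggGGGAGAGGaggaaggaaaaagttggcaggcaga
A match describes these letters only and is no measured binding site.

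The first comparison, which the labels imply, asked which members differ between cells with tagged BCL11A and the parental line. No member passed limma's test with line as random block (0 of 14 probe sets, and 0% of all 25061 tested). At an unadjusted p under 0.05 there were 3 member probe sets and 2190 of all. The median log2 difference was -0.01 over the 14 member probe sets and 0.01 over all. With spread estimated within lines alone, the mean of the 4 subclones differed for 2 member probe sets, Aqp1 higher and a Cd47 probe set lower (limma's adjusted p = 0.029 and 0.035), where 3.54% of all probe sets passed, 1.98% higher and 1.56% lower.

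Against parental, FBB1.7 was the subclone in which members passed. There 4 of 14 member probe sets passed limma's test in a fit of 5 line means, beside 10.1% of all tested probe sets, with Aqp1 and Rhag higher (4.55% of all were) and Ermap and a Cd47 probe set lower (5.5%). None of the 14 passed in FBB1.5 (2.02% of all), FBB1.10 (1.8%) or FBB1.11 (0.188%), with 3, 7 and 4 at an unadjusted p under 0.05, where 3709, 3866 and 2956 of all 25061 were. Probe sets as bright as the members are called more often. Among the 16525 with a mean intensity of at least 55.2, that of the dimmest tested member probe set, 14% passed in FBB1.7. These 4 comparisons share the parental arrays.

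**Figure D1:**
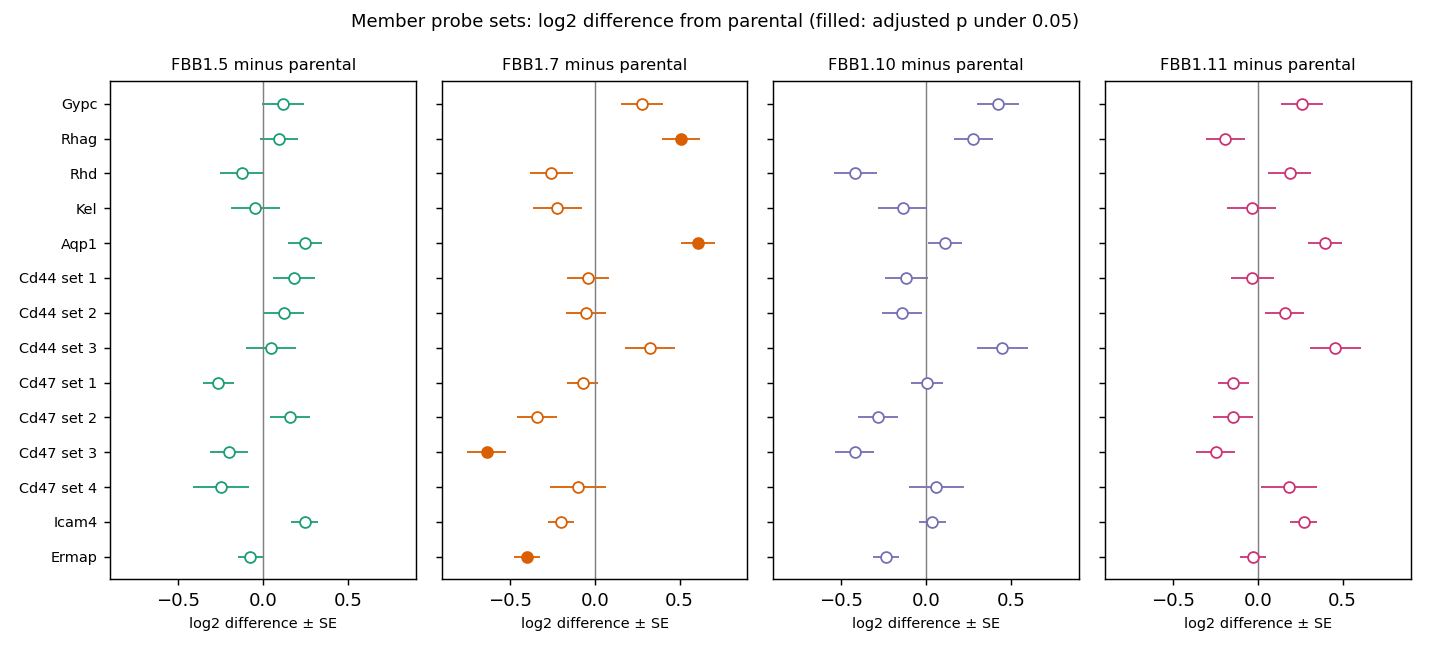
Log2 difference from parental (x axis, log2 of intensity plus 16) of the 14 tested member probe sets in each subclone, with the SE as bars and filled points at an adjusted p under 0.05. Filled points appear in FBB1.7 alone, for Aqp1 and Rhag above 0 and for Ermap and Cd47 set 3 below; the sets of Cd44 and Cd47 are numbered from the brightest.

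The 4 subclones were also compared with each other, which uses no parental array in the contrast. In a moderated F test 6 of 14 member probe sets differed between subclones, those of Icam4, Rhag, Ermap, Aqp1 and Rhd and 1 of Cd47, beside 7.24% of all tested probe sets and 10.2% of those at least as bright as the dimmest member. Over the 6 pairs of subclones 10 member calls were made, 9 of them in pairs that hold FBB1.7. FBB1.7 against FBB1.5 gave 6 of 14 (9.44% of all), FBB1.11 against FBB1.7 gave 3 (3.29%) and FBB1.10 against FBB1.5 gave 1 (3.92%). The remaining pairs gave 0 by limma's test, namely FBB1.11 against FBB1.5 (1.32% of all), FBB1.10 against FBB1.7 (0.124%) and FBB1.11 against FBB1.10 (0.267%). At an unadjusted p under 0.05 these 3 pairs had 5, 2 and 6 member probe sets and 2578, 2675 and 2178 of all 25061. When the lines were ordered by level for each probe set, none of the 56 pairs of neighbours in that order passed (smallest adjusted p 0.13), so only lines further apart in the order are told apart. All 6 F test calls were lost when the variance was modelled without an intensity trend (adjusted p 0.069 to 0.22). So were the 10 calls in pairs of subclones (adjusted p 0.051 to 0.16).

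Markers of other cell types were read on the same arrays. The summed intensity of 11 mast cell and basophil markers was 762 to 879 in parental cells, while FBB1.5 had 720 to 1071, FBB1.7 had 414 to 449, FBB1.10 had 413 to 443 and FBB1.11 had 357 to 427. Of its 5 tested markers 3 were called lower in FBB1.7, 3 in FBB1.10, 2 in FBB1.11 and 1 in FBB1.5. The other 6 (Tpsab1, Mcpt8, Fcer1a, Ms4a2, Mrgprb1 and Hdc) did not exceed the table median on any array. Cma1 (line mean 293 in parental, 31.2 in FBB1.7) and Gzmb (269 and 178) weighed most in the parental sum. Cpa3 (99 and 48.4) and Mcpt4 (51.75 and 32.8) had lower line means in FBB1.7 too, although not all 4 were called. Tpsb2, the last tested marker, had a higher one (38.7 and 54.2). For FBB1.5 the line mean of Cma1 was 447 and that of Mcpt4 18.7, so the sum does not stand for each marker. The part of these levels in the member results was not tested. Of 9 tested erythroid markers 2 were called lower in FBB1.7, and 1 was called higher in FBB1.5. The summed intensity over 11 markers was 7103 to 7298 in FBB1.7 against 7546 to 8438 in parental cells. Tfrc, called lower, had line means of 2574 in parental cells and 2036 in FBB1.7. Tal1 (430 and 325), Klf1 (1158 and 1020) and Nfe2 (170 and 148) had lower line means in FBB1.7 too. So did Trim10 (398 and 336), Alas2 (65.9 and 61.9) and, by little, Gata1 (2251 and 2231). Epor (913 and 1011) and the dim Epb42 (15.35 and 18.9) had higher ones, so the markers did not all move the same way. Of 5 tested megakaryocyte and platelet markers 1 was called higher and 1 lower in FBB1.7. Of 5 progenitor markers 1 was called lower in FBB1.7 and FBB1.10, and of 4 fibroblast and stroma markers 1 was called lower in FBB1.7. No tested marker of B cells (4), T and NK cells (4) or granulocytes and macrophages (4) passed limma's test in any subclone.

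Rhag and Rhd encode proteins of the Rh complex. Rhag, the Rh-associated glycoprotein, is needed for Rh proteins to reach the surface and passes ammonia and gases. Its intensity (1419014_at) was 318 and 346 in parental cells, while FBB1.5 had 378 and 333, FBB1.7 had 486 and 472, FBB1.10 had 449.6 and 366 and FBB1.11 had 284 and 294. Both FBB1.7 arrays were above the arrays of every other line and both FBB1.11 arrays below them. How many of all probe sets set a line apart in this way was not counted, here or for the members below. In FBB1.7 Rhag rose 1.42-fold over parental, a log2 difference of 0.51 ± 0.11 (SE, limma's adjusted p = 0.011), a call that ended without FBB1.7 1 or FBB1.7 2 (adjusted p 0.090 and 0.063) and without the intensity trend (0.052). The differences from parental in FBB1.5, FBB1.10 and FBB1.11 were 0.093, 0.28 and -0.19 (adjusted p 0.77, 0.25 and 0.54).

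Between subclones Rhag was 1.62-fold lower in FBB1.11 than in FBB1.7, a log2 difference of -0.70 ± 0.11 (SE, limma's adjusted p = 0.0037), and 0.42 higher in FBB1.7 than in FBB1.5 (adjusted p = 0.031). The F test over subclones gave an adjusted p of 0.0065. The first call ended without FBB1.7 1 or FBB1.11 1 (adjusted p 0.061 and 0.058), the second without any FBB1.5 or FBB1.7 array (adjusted p 0.055 to 0.19), and the F test without FBB1.7 1 (0.051).

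Rhd, the single mouse gene that stands for both human Rh antigen genes, showed another order. Its intensity (1417049_at) was 446 and 475 in parental cells, while FBB1.5 had 473 and 376, FBB1.7 had 381 and 385, FBB1.10 had 299 and 388 and FBB1.11 had 515 and 540.3. The FBB1.11 arrays were above the arrays of every other line, and FBB1.7 and FBB1.10 arrays were below both parental arrays. The subclones differed in the F test (adjusted p = 0.033), although no single pair passed. FBB1.11 against FBB1.10, the largest gap, had a log2 difference of 0.61 ± 0.13 (SE, adjusted p = 0.074). With the actin ratio as a covariate that pair passed (limma's adjusted p = 0.026). The F test call ended without FBB1.10 1 or either array of FBB1.7 and FBB1.11 (adjusted p 0.075 to 0.18), and the FBB1.11 against FBB1.10 pair passed without parental 1, parental 2 or FBB1.10 2 (adjusted p 0.033 to 0.041). FBB1.11 thus had the lowest Rhag and the highest Rhd line mean of the 5. Across the 10 arrays Pearson's r of the 2 genes was -0.734, a description over arrays that share lines. This was not particular to the pair, since Rhag had an r of -0.828 with Ermap, -0.788 with Icam4 and 0.44 with Aqp1.

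**Figure D2:**
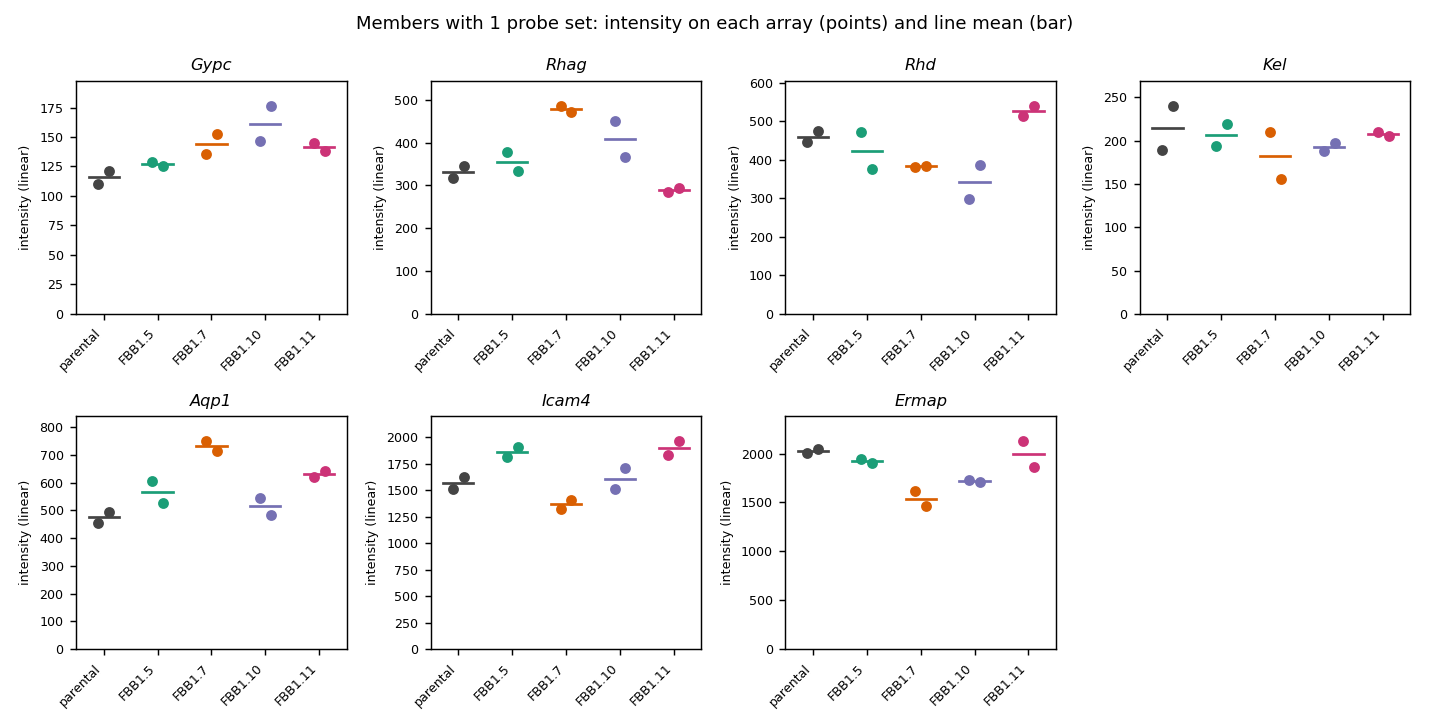
Linear probe set intensity (y axis, from 0) of the 7 members with 1 probe set, with a point for each of the 2 arrays of a line and a bar at the line mean. Rhag is highest in FBB1.7 and lowest in FBB1.11, Rhd is highest in FBB1.11, Aqp1 is highest in FBB1.7, and Icam4 and Ermap are lowest there.

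Aqp1 encodes the water channel of the red cell membrane, which carries the Colton blood group. Its intensity (1416203_at) was 455 and 496 in parental cells, while FBB1.5 had 606 and 528, FBB1.7 had 749 and 714, FBB1.10 had 546 and 484 and FBB1.11 had 620.1 and 641. The FBB1.7 arrays were above all others, and 7 of the 8 tagged arrays were above both parental arrays. All 8 were above them for 5.22% of tested probe sets, and the share with 7 was not counted. Aqp1 rose 1.52-fold in FBB1.7, a log2 difference of 0.61 ± 0.10 (SE, limma's adjusted p = 0.0015), and this call held under all 19 alternatives (adjusted p up to 0.027 with an array left out). It was the only 1 of the 20 member calls that did. In FBB1.11, FBB1.5 and FBB1.10 the differences were 0.40, 0.24 and 0.11 (adjusted p 0.12, 0.26 and 0.66).

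Aqp1 also differed between subclones (F test adjusted p = 0.024), with FBB1.7 higher than FBB1.5 by 0.36 (adjusted p = 0.032). The F test call ended without either array of FBB1.7 or FBB1.11 or without FBB1.10 2 (adjusted p 0.051 to 0.17). The pair lost its call without FBB1.5 2 or either array of FBB1.7 or FBB1.11 (adjusted p 0.052 to 0.22). FBB1.10 against FBB1.7 stood at -0.50 (adjusted p = 0.068), and passed without either parental array (0.032 and 0.034).

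Icam4 and Ermap encode immunoglobulin-like surface proteins. Icam4, the Landsteiner-Wiener antigen, binds integrins and helps hold erythroblasts to the macrophages they mature on. Its intensity (1422930_at) was 1511 and 1627 in parental cells, while FBB1.5 had 1812 and 1909, FBB1.7 had 1322 and 1409.5, FBB1.10 had 1515 and 1706 and FBB1.11 had 1830.3 and 1961. The FBB1.7 arrays were the lowest, and the FBB1.5 and FBB1.11 arrays were above all others. No subclone passed against parental (0.24 in FBB1.5, -0.20 for FBB1.7, 0.04 for FBB1.10 and 0.27 for FBB1.11 on the log2 scale, adjusted p 0.13 to 0.88), with the parental level between the extremes. The FBB1.7 difference did pass with quantile normalization (limma's adjusted p = 0.026).

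Between subclones Icam4 was 1.36-fold lower in FBB1.7 than in FBB1.5 (log2 difference -0.44 ± 0.078, SE, limma's adjusted p = 0.0024) and 1.38-fold higher in FBB1.11 than in FBB1.7 (0.47 ± 0.078, adjusted p = 0.0045). Its F test had the smallest adjusted p of the members, 0.0042. Both pairs and the F test lost their calls without the intensity trend (adjusted p 0.053, 0.11 and 0.12). With any array left out the first pair kept its call (adjusted p up to 0.044). The second pair lost it without FBB1.7 1 or FBB1.11 2 (0.081 and 0.078) and the F test without FBB1.7 1 (0.058).

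Ermap encodes an erythroid membrane protein of the butyrophilin kind that carries the Scianna blood group. Its intensity (1418909_at) was 2007 and 2049 in parental cells, while FBB1.5 had 1948 and 1900.3, FBB1.7 had 1614 and 1460.4, FBB1.10 had 1726 and 1710.9 and FBB1.11 had 2125 and 1865. The FBB1.7 arrays were below all others, and the FBB1.10 arrays came next. Ermap fell 1.32-fold in FBB1.7, a log2 difference of -0.40 ± 0.076 (SE, limma's adjusted p = 0.0040). That call ended without FBB1.7 2 (0.063), without the intensity trend (0.070) and once the actin ratio was a covariate (0.068).

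Ermap in FBB1.7 was also below FBB1.5 by a log2 difference of 0.32 and below FBB1.11 by 0.37 (adjusted p = 0.014 and 0.015), and the F test gave 0.018. The first pair lost its call without FBB1.5 1 or FBB1.7 2 (adjusted p 0.10 and 0.14), the second without FBB1.7 2 or FBB1.11 1 (0.15 and 0.22), and the F test without FBB1.5 1, FBB1.7 2 or FBB1.11 1 (0.055 to 0.15).

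Cd47 is the self signal that restrains macrophages through their receptor SIRP alpha, and 4 of its probe sets were tested. The probe set 1419554_at (set 3 in brightness) read 216 and 248 in parental cells, while FBB1.5 had 202 and 197, FBB1.7 had 135 and 152, FBB1.10 had 171 and 167 and FBB1.11 had 192 and 193. All 8 tagged arrays were below both parental arrays, which held for 4.24% of tested probe sets. It fell 1.55-fold in FBB1.7, a log2 difference of -0.64 ± 0.11 (SE, limma's adjusted p = 0.0029), and stood at -0.42 in FBB1.10 (adjusted p = 0.079). The FBB1.7 call held with any array left out (adjusted p up to 0.049) and was lost with the actin ratio as a covariate (0.083). The FBB1.10 difference passed without parental 1 (0.040).

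The brighter set 2 (1428187_at) read 306 and 275 in parental cells, while FBB1.5 had 348 and 305, FBB1.7 had 216 and 237, FBB1.10 had 254 and 219 and FBB1.11 had 252 and 269.6. Its line mean was highest in FBB1.5 and lowest in FBB1.7. It did not pass in FBB1.7 against parental (-0.34, adjusted p = 0.084), was lower in FBB1.7 than in FBB1.5 by 0.50 (adjusted p = 0.014) and lower in FBB1.10 than in FBB1.5 by 0.44 (adjusted p = 0.049), and differed between subclones (F test adjusted p = 0.046). The FBB1.7 pair lost its call without FBB1.5 1 or FBB1.7 1 (0.13 and 0.15), and the FBB1.10 pair and the F test lost theirs without any one subclone array (adjusted p up to 0.27 and 0.28). Set 3 was likewise lower in FBB1.7 than in FBB1.5, by 0.43 (adjusted p = 0.026), and lost that call without any array of the pair (0.056 to 0.23) and with the actin ratio as covariate (0.091).

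The brightest Cd47 probe set (1449507_a_at) read 609.6 and 578 in parental cells and 469.6 to 603 on the tagged arrays, with the lowest line mean in FBB1.5 (515 and 469.6). Its log2 difference in FBB1.7 was -0.07 (adjusted p = 0.70), beside -0.64 for set 3 and -0.10 (adjusted p = 0.78) for the dimmest tested set, 1430997_at. Whether these probe sets differ from each other in their change was not tested, and which Cd47 transcripts each one reads was not analysed here.

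**Figure D3:**
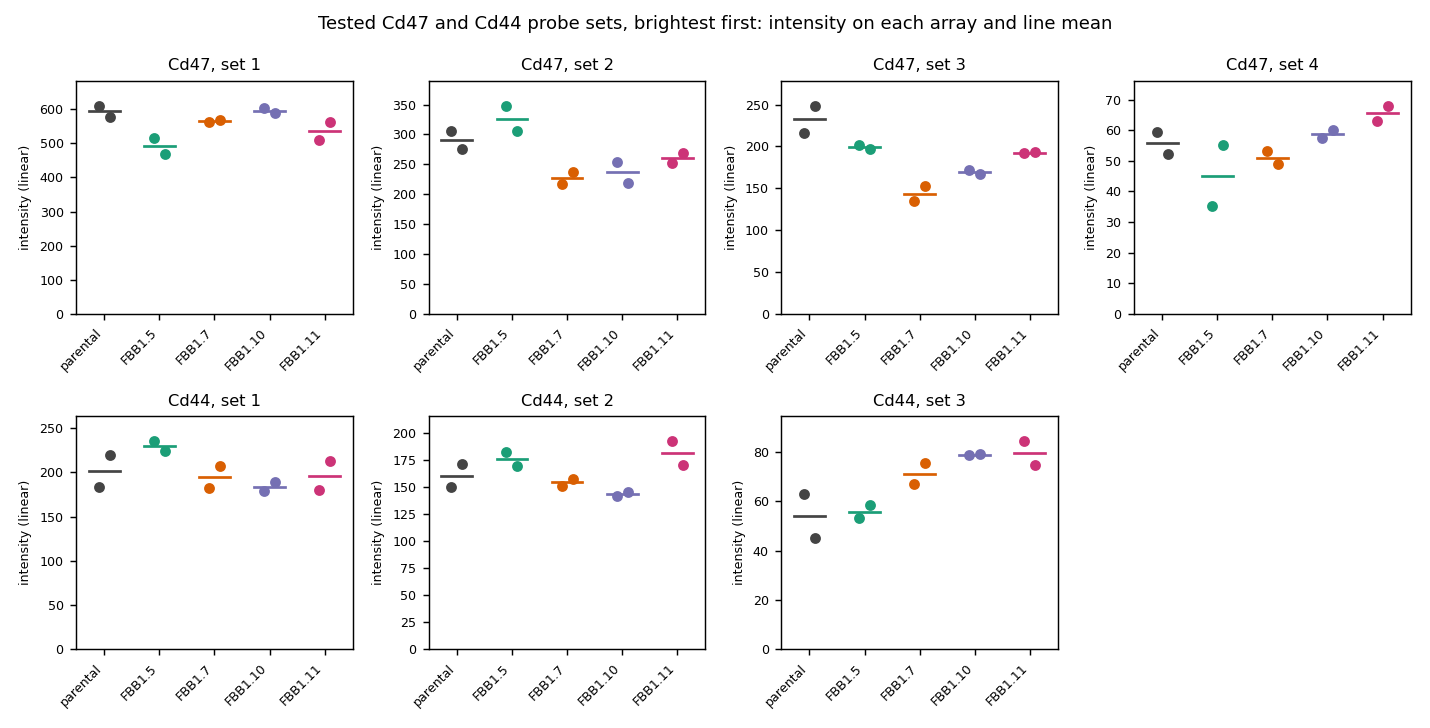
Linear intensity (y axis, from 0) of the 4 tested Cd47 and 3 tested Cd44 probe sets, numbered from the brightest, with a point per array and a bar at the line mean. Cd47 sets 2 and 3 are lowest in FBB1.7 while set 1 is lowest in FBB1.5, and Cd44 set 3 has a higher line mean in each subclone than in parental cells.

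Cd44, the hyaluronan receptor that carries the Indian blood group, passed in no comparison. Its brightest probe set (1434376_at) read 183 and 219 in parental cells and 178 to 235 on the tagged arrays, with differences of -0.12 to 0.18 on the log2 scale (adjusted p 0.55 to 0.95). The second (1423760_at) read 149.9 and 171 in parental cells and 142 to 192 on tagged arrays. The third (1452483_a_at) read 63.0 and 45.2 in parental cells, while FBB1.5 had 53.2 and 58.4, FBB1.7 had 66.9 and 75.4, FBB1.10 had 78.7 and 79.0 and FBB1.11 had 84.3 and 74.9. On 6 of 8 tagged arrays it was above both parental arrays, an order whose share over all probe sets was not counted. Its differences of 0.32, 0.45 and 0.46 in FBB1.7, FBB1.10 and FBB1.11 each had an SE of 0.15 (adjusted p 0.19, 0.15 and 0.24), and the second of these passed without parental 1 (adjusted p = 0.037).

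Gypc and Kel, which link the surface to partner proteins, passed in no comparison either. Gypc encodes glycophorin C, which anchors the membrane to protein 4.1 and carries the Gerbich blood group. Its intensity (1423878_at) was 111 and 121 in parental cells, while FBB1.5 had 129 and 125, FBB1.7 had 136 and 152, FBB1.10 had 146 and 176 and FBB1.11 had 145 and 139. All 8 tagged arrays were above both parental arrays, which held for 5.22% of tested probe sets. The difference of tagged from parental was 0.27 ± 0.13 (log2, SE, adjusted p = 0.57), and the largest, in FBB1.10, was 0.42 ± 0.12 (adjusted p = 0.10).

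Kel encodes the Kell blood group protein, a surface metalloprotease bound to the XK protein. Its intensity (1449057_at) was 189.7 and 239.95 in parental cells, while FBB1.5 had 194 and 219.65, FBB1.7 had 210.3 and 155, FBB1.10 had 188 and 197 and FBB1.11 had 210.1 and 206. The arrays of all 5 lines overlapped or lay within the range of the parental and FBB1.7 arrays. The log2 differences from parental were -0.22 to -0.03, each with an SE of 0.14 (adjusted p 0.38 to 0.95). Its F test over subclones gave an adjusted p of 0.77.

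Other genes of the red cell surface were read from a list of 48, of which 33 had a tested probe set of their own, taking the brightest. None passed limma's test for tagged against parental (4 at an unadjusted p under 0.05). In FBB1.7 2 were higher and 6 lower (10.1% of all probe sets passed), in FBB1.5 2 higher and 1 lower (2.02%), in FBB1.10 2 higher and 1 lower (1.8%), and in FBB1.11 none passed limma's test (0.188%, and 3 genes at an unadjusted p under 0.05). Between subclones 6 of 33 differed (7.24% of all). The median log2 difference in FBB1.7 was -0.01, beside 0.00 over all probe sets (-0.07 over the 9 members by their brightest probe set).

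The 4 genes with the clearest differences over the lines were Prnp, Emp3, Tfrc and Cd81. Emp3, which carries the MAM blood group, had a mean of 707 ± 23.8 in parental cells (SD, n = 2) and 428 ± 13.2 in FBB1.7, and fell by 0.70 ± 0.096 as a log2 difference (SE, limma's adjusted p = 0.00037), a call that none of the 19 alternatives ended. Cd81, a tetraspanin, had 1132 ± 41.8 in parental cells, 839 ± 31.2 in FBB1.7 and 851 ± 2.45 for FBB1.10, and fell in both subclones (adjusted p = 0.0032 and 0.019). The first call ended without FBB1.7 1 (0.051) and the second without either FBB1.10 array (up to 0.12) and with the actin ratio as covariate (0.077). Tfrc, the transferrin receptor, fell from 2574 ± 221 to 2036 ± 16.5 in FBB1.7 (adjusted p = 0.035). It lost the call without parental 2 or either array of FBB1.7 or FBB1.11 (adjusted p up to 0.20), without the filter or the intensity trend, and with the actin ratio as covariate (0.20). Its 2 dimmer probe sets stood at 0.60 and 0.20 (adjusted p 0.28 and 0.72), above 0. Prnp, the prion protein gene, had 3239 ± 137 in parental cells, 3870 ± 374 in FBB1.7, 4144 ± 714 for FBB1.10 and 2420 ± 189.7 for FBB1.11, and differed between subclones (F test adjusted p = 0.00078) without passing against parental. With the replicate number as a block it passed in all 4 subclones (adjusted p 0.011 to 0.024), although the numbers do not pair the arrays. Its dimmer probe set (1416130_at) was higher in FBB1.7 and FBB1.10 (0.56 and 0.65, adjusted p = 0.025 and 0.036).

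The remaining genes of this list that passed against parental are named because of that, after their values were seen. Bsg, basigin of the Ok blood group, had 1487 ± 118 in parental cells and rose to 2123 ± 6.89 in FBB1.7 (0.51, adjusted p = 0.00064, held under all 19 alternatives). It also rose in FBB1.5 and FBB1.10 (adjusted p = 0.047 and 0.045). The latter 2 calls each ended under 14 of 19 alternatives. In FBB1.11 Bsg stood at 0.38 (adjusted p = 0.060), and passed without parental 1 (0.0086), with the filter in all 10 arrays (0.049) and with the replicate number as a block (0.034). Abcb6, the porphyrin transporter of the Langereis blood group, rose in FBB1.7 (139.7 ± 15.7 to 235 ± 23.9, adjusted p = 0.0043) and FBB1.10 (adjusted p = 0.035). Without FBB1.7 1 the first call ended (0.068), and without parental 1 or either FBB1.10 array the second (up to 0.22). In FBB1.5 Abcg2 of the Junior blood group was higher and Cd24a lower (adjusted p = 0.026 and 0.027), and both lost the call without either FBB1.5 array (up to 0.13 for each). Abcg2 lost it without parental 1 too, and Cd24a without parental 2. Another Cd24a probe set (1416034_at) was higher in FBB1.7 (0.57, adjusted p = 0.014) and stood at -0.001 in FBB1.5 (adjusted p 0.998). The dimmest, 1437502_x_at, stood at -0.42 in FBB1.5 without passing (adjusted p 0.066). Slc44a2, Cd55 and Piezo1 were lower in FBB1.7 (adjusted p = 0.046, 0.037 and 0.032), and all 3 lost the call without parental 2 or FBB1.7 2 (adjusted p up to 0.33). Cd55 also lost it without parental 1, and Slc44a2 without parental 1, FBB1.7 1 or either FBB1.11 array. With the actin ratio as covariate, itself 1.80 in parental 2, all 3 lost it (0.17, 0.24 and 0.22). Another Cd55 probe set (1418762_at) was lower in FBB1.7 by 0.79 (adjusted p = 0.0022), and Slc44a2 1438860_a_at stood at 0.15 there (adjusted p 0.58).

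Of 20 membrane skeleton and anchor genes 17 had a tested probe set. None passed limma's test for tagged against parental (3 at an unadjusted p under 0.05). Against the same shares of all probe sets, 2 were higher and 3 lower in FBB1.7, 2 higher in FBB1.5, 1 higher in FBB1.10 and none in FBB1.11 by limma's test (6 at an unadjusted p under 0.05), and 6 of 17 differed between subclones. Add1, an adducin that caps actin, fell from 753 ± 54.7 to 476 ± 6.61 in FBB1.7 (SD, n = 2, adjusted p = 0.0013). None of the 19 alternatives ended that call, while its 2 dimmer probe sets stood at -0.38 and -0.09 (adjusted p 0.22 and 0.66). Ezr, an actin linker that binds Cd44, had 258 ± 31.9 in parental cells and 169 ± 0.226 in FBB1.7 and fell there (adjusted p = 0.0093), unless parental 1 or either FBB1.7 array was left out (up to 0.071) or the actin ratio was a covariate (0.073). Its other probe set (1456725_x_at) stood at -0.23 there (adjusted p 0.24) and was lower in FBB1.10 by 0.51 (adjusted p = 0.042). Dmtn, dematin, rose in FBB1.5 from 347 ± 21.0 to 524 ± 29.0 (adjusted p = 0.0068), a call lost without FBB1.5 1. Its dimmer probe set (1445439_at) stood at 0.17 there (adjusted p 0.52).

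The brighter Sptb probe set (beta spectrin, 1450556_at) rose in FBB1.7 and FBB1.10 (0.87 and 0.99, adjusted p = 0.0096 and 0.019). The dimmer, 1455226_at, fell in FBB1.7 by 0.92 (adjusted p = 0.00094), so Sptb has no settled direction there. The rise in FBB1.7 ended without parental 2 or FBB1.7 1 (up to 0.13) and the FBB1.10 call without parental 2 or either array of that line (up to 0.18). Both also ended with the actin ratio as covariate (0.32 and 0.19). Also passing, and named for that reason, were Add2, lower in FBB1.7 (adjusted p = 0.0025) by its brightest probe set, Actb, higher in FBB1.7 (0.029), and Epb42, protein 4.2, at least 1.53-fold higher in FBB1.5 (0.033), where both parental arrays were below the table median. Of the other 4 Add2 probe sets 3 stood above 0 in FBB1.7 (0.21, 0.21 and 0.31) and 1 below (-0.21), none of them called. Actb lost its call without parental 2 or either FBB1.7 array (up to 0.25) and Epb42 without any parental or FBB1.5 array (up to 0.19). With the actin ratio as covariate both lost it too (0.95 for Actb and 0.055 for Epb42). The dimmer Actb probe set (1419734_at) stood at 0.11 in FBB1.7 (adjusted p 0.70).

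**Figure D4:**
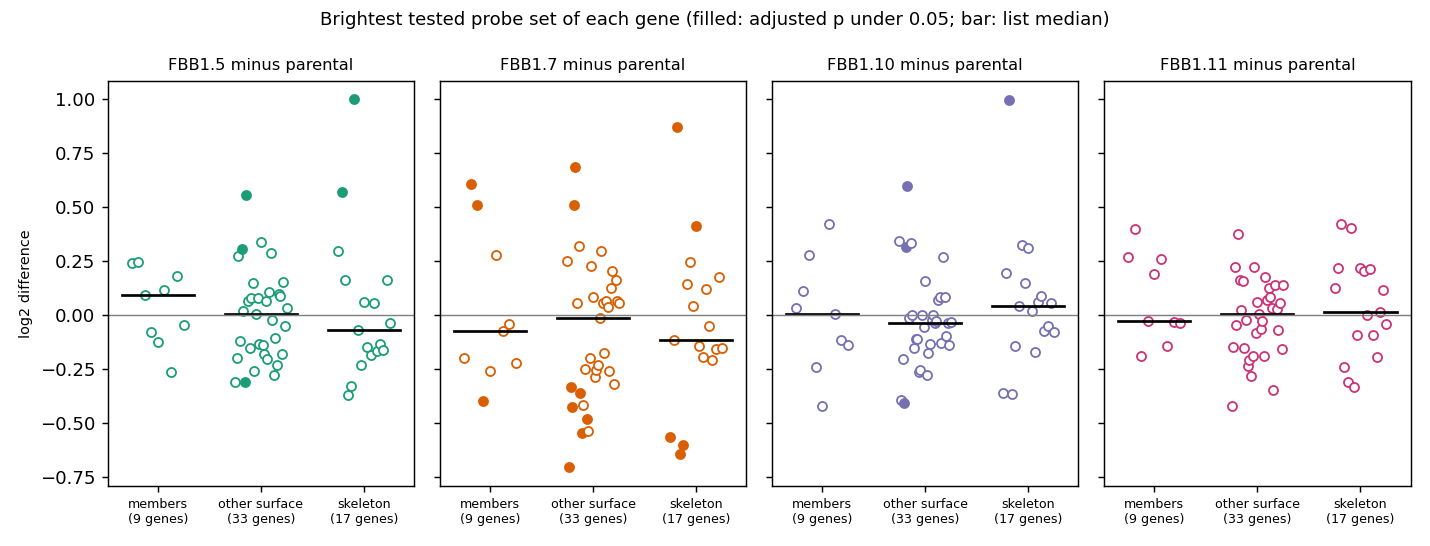
Log2 difference from parental (y axis) of the brightest tested probe set of each gene in 3 lists for each subclone, filled at an adjusted p under 0.05, with a bar at the list median. In FBB1.7 3 of 9 member genes, 8 of 33 other surface genes and 5 of 17 skeleton genes are filled, on both sides of 0, and none is filled in FBB1.11.

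For the 3 members with the clearest differences over the lines, genes with the most similar pattern over the 10 arrays were sought among all tested probe sets, as a description over arrays that share lines. Rhag was nearest to Dvl2 (Pearson's r = 0.971), Gigyf2 (0.953) and Hells (0.950). Dvl2, a Wnt signalling adaptor, had 116 in parental cells, 177 in FBB1.7 and 104 in FBB1.11. Icam4 was nearest to Gsto1 (0.966), Hilpda (0.953) and Dkc1 (0.952), and Aqp1 to Trgv4 (0.956), Capn3 (0.947) and Atp6v1e1 (0.933). Gsto1, a glutathione transferase, had 1162 in FBB1.7 and 1520 in FBB1.5, and Dkc1, the pseudouridine synthase dyskerin, 493 and 650.1. What r a pattern of another gene would reach was not tested.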

How the data were processed

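RNA of 5 MEL lines was measured on 10 Affymetrix arrays. The authors deposited an intensity per probe set on a linear scale. The summary, background correction and scaling steps were not given in the sources used here. Per the labels' protocols, oligo-dT primed cDNA was transcribed into biotin-labelled cRNA. No 2 arrays were identical, and the number of arrays, 2 per line, limits the precision.

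Values were taken as log2(intensity + 16), which understates changes of dim probe sets. Array medians on this scale spread by 0.0623, under the limit of 0.2, so no scaling was added. Of 45101 probe sets, 64 controls were left out, and 25061 above the table median (30.5) on at least 2 arrays were tested. Names come from the platform annotation. Of the remaining probe sets 34945 had 1 symbol, 932 several and 9160 none, and 34741 of the first matched a RefSeq gene (GRCm38.p6). No probe set named a member together with another gene.

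Tests used R 4.3.3 with limma 3.58.1 (statmod 1.5.0), and moderated variances (eBayes, intensity trend), with Benjamini-Hochberg adjustment over all tested probe sets at 0.05. Tagged against parental had the line as a random block (consensus correlation 0.211). Other contrasts came from a fit of 5 line means (5 residual and 9.92 prior degrees of freedom). Where an array was left out, its partner was taken to have the spread of the other lines. In simulated data for FBB1.7 against parental with 25061 probe sets, the test found 97 of 100 with a log2 change of 1, 49 of 100 with one of 0.5, and 7 false positives. The simulated noise was normal and independent, with an SD set by intensity alone, as the fitted trend assumes. Real probe sets of equal intensity can differ in spread, so these counts hold for the simulated setting only. Figures were drawn in Python 3.11.15 with matplotlib 3.10.9.

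Members and lists were chosen with earlier results of these data known. Named beside the members are the 4 genes per list with the smallest F test p over the lines, and the 3 genes most like each of 3 members. Alternatives covered pseudocounts of 1 and 64, quantile normalization, median centring, 2 other filters, no intensity trend, the replicate number as a block, the actin ratio as a covariate and each array or subclone left out.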

Additional observations from a re-analysis of the deposited data

Results flagged for a closer look

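The differences from parental were unequal between the 4 subclones, by the F test itself, for 6 of 14 member probe sets and 10 of the 18 list genes named by their brightest probe set. Of all tested probe sets 7.24% were. The list genes were named for a small F test p over the lines or a call in a subclone, so their count supports nothing. Among members the adjusted p was 0.0042 for Icam4, 0.0065 for Rhag, 0.018 for Ermap, 0.024 for Aqp1, 0.033 for Rhd and 0.046 for a Cd47 probe set (1428187_at). Among the other surface genes it was 0.00078 for Prnp, 0.0014 for Tfrc, 0.0061 for Emp3, 0.0082 for Cd24a, 0.0083 for Cd81 and 0.0095 for Abcb6. Among skeleton genes it was 0.0013 for Ezr, 0.0034 for Dmtn, 0.033 for Sptb and 0.044 for Epb42.

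Among the 8 tagged arrays, single arrays lay far from the rest for 2 of these 32 probe sets. Chance gives about 1 in 20 for independent arrays, and these share lines, so that rate is only a guide. Piezo1 read 332 in FBB1.7 2 and 433 on the nearest array, a gap of 0.645 of the whole range. Actb read 9609 in FBB1.5 1, whose actin 3' to 5' ratio was 1.47, and 12111 on the nearest, a gap of 0.553. No member probe set had an array that far from the rest.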

How the results depend on the processing

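No called member result changed direction under any alternative. Of 20 member calls, 1 (Aqp1 in FBB1.7) was kept under all 19 alternatives, and 5 of 148 results that were not called passed under some. Tagged against parental gave 0 members, and 2 by the mean of the 4 subclones in the fit of 5 line means. FBB1.7 against parental gave 4, with 2 without the intensity trend, 2 once the actin ratio was a covariate, and 2 to 4 with an array left out (2 without FBB1.7 2). With quantile normalization FBB1.7 against parental gave 5, with Icam4 added. Over all probe sets that comparison gave 2519 calls, 1628 without a filter, 1187 without the trend and 859 with the covariate, and the F test gave 1814, 985 without a filter and 483 without the trend. FBB1.10 gave 0, and 0 to 2 with an array left out (2 without parental 1). FBB1.5 and FBB1.11 gave 0 under all 19 alternatives. The F test between subclones gave 6, with 3 without a filter and 0 without the intensity trend, and 1 to 6 with an array left out, the lowest without FBB1.7 1. The pairs of subclones gave 10 calls, 0 without the intensity trend and 3 to 12 with an array left out, the lowest without FBB1.7 1. Of the 22 calls of list genes against parental, 15 ended without the intensity trend, 12 without a filter and 12 with the actin ratio as covariate.

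Arrays that share a number are not paired by the labels, and their deviations correlated at -0.157 to 0.183 over 10 pairs of lines, over 0.1 in 1. With the replicate number as a block the counts were 0 for tagged, FBB1.5, FBB1.10 and FBB1.11 against parental, 4 for FBB1.7, 5 for the F test and 9 for the pairs, so of the F test calls 1, that of Cd47, was lost (adjusted p = 0.051). Among list genes the block ended no call against parental and added those of Prnp and, in FBB1.11, Bsg. The cause of these changes was not tested.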
